A study of Arabidopsis thaliana with 12 samples.

Results

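COR15A (AT2G42540), COR15B (AT2G42530) and COR47 (AT1G20440) are cold-regulated genes of Arabidopsis that are also induced by the stress hormone abscisic acid (ABA). They were taken as the probe sets that the platform annotation assigns to these loci alone. Each gene had 1 such probe set, so 3 probe sets were followed of 22810 on the array. All 3 were among the 14295 that passed a filter on dim probe sets, above the 40th percentile of their own array on at least 3 arrays. Transcript levels were measured with short-oligonucleotide probe sets of the Affymetrix ATH1 array, in axillary buds of the rosette of the Col-8 ecotype (genetic background Col-0) at growth stage 6.00 of the labels. The buds were the lower bud n-2 at low R:FR, the lower bud n-2 at high R:FR, the uppermost bud n at low R:FR and the uppermost bud n at high R:FR, with 3 arrays in each of the 4 groups. R:FR is the ratio of red to far-red light, which drops where leaves of nearby plants filter the light, so low R:FR stands for shade. All groups shared the same genotype, the same photoperiod of 18 h, a light level of 185 µmol/m²/s and day and night temperatures of 24 and 18 °C. All had also been given 3 days at 4 °C, at a stage not stated here, so these days cannot be placed relative to harvest. The labels give no time of day of harvest.

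COR15A and COR15B encode small hydrophilic proteins that are imported into the chloroplast stroma, where they protect membranes during freezing. COR47 encodes a dehydrin, a late embryogenesis abundant (LEA) protein of the cytosol that protects other proteins and membranes when water is lost. In cold, the CBF (DREB1) transcription factors switch these genes on, and ABA acts on such genes through the ABF family of bZIP factors. Phytochromes and PIF factors, which read R:FR, are known to act on the CBF genes in Arabidopsis, and ABA is known to restrain the outgrowth of axillary buds. By the RefSeq annotation of assembly TAIR10.1, COR15A and COR15B are adjacent protein-coding genes, and COR47 lies next to ERD10, a related dehydrin gene that was not analysed here. The RefSeq table used here holds no sequences, and whether probes of COR15A also detect COR15B was not tested.

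As deposited, every array had the same trimmed mean intensity. The median intensity was 42.4 to 44.1 in bud n-2 and 37.8 to 38.8 in bud n. Correlations between arrays of a group were 0.977 to 0.988. Whether replicates are separate plantings is not stated in the labels, so p-values measure only array-to-array spread, which may be technical, and having 3 arrays a group limits the precision. Of 16 marker genes of axillary meristems and buds, 3 had a probe set of their own by the platform annotation used. PHV and YAB3, which act in leaf polarity, were above the 40th percentile of their array on every array, and LAS, which acts in axillary meristem formation, was below it on all 12. In whole buds, fewer cells of a type and less RNA per cell cannot be told apart.

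COR15A had the clearest separation of the groups. Its intensity was 1114, 1237 and 1365 in bud n-2 at low R:FR, against 1431, 2178 and 1712 in bud n-2 at high R:FR (replicates 1, 2 and 3). In bud n it was 422, 289.5 and 438 at low R:FR, against 534, 727 and 710.1 at high R:FR. The 12 arrays therefore fell into 4 ranges that did not overlap, with bud n-2 at high R:FR at the top, then bud n-2 at low R:FR, bud n at high R:FR and bud n at low R:FR. Of all tested probe sets, 0.147% had their groups in that order without overlap, which is given as a description because the order was read from COR15A itself. The steps between light conditions within a bud did not pass the test given below, so the neighbouring light groups are separate in range only.

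COR15B had intensities of 349.8, 333 and 388 in bud n-2 at low R:FR, against 482, 629 and 557 in bud n-2 at high R:FR. In bud n it had 215, 232 and 229 at low R:FR, against 190.4, 358 and 277 at high R:FR. The order of the group means was that of COR15A, but only bud n-2 at high R:FR stood clear of the others. Replicate 2 of bud n at high R:FR lay within the range of bud n-2 at low R:FR, and replicate 1 lay below every array of bud n at low R:FR. The coefficient of variation of COR15B was 30.5% in bud n at high R:FR and 3.98% in bud n at low R:FR, where the arrays were nearly equal.

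COR47 separated the positions but not the light conditions. Its intensity was 331, 345 and 382 in bud n-2 at low R:FR, against 326, 257 and 351 in bud n-2 at high R:FR. In bud n it was 165, 168 and 192 at low R:FR, against 194, 183 and 209.9 at high R:FR. The light groups overlapped in both buds, and their order was reversed between the buds, with bud n-2 at low R:FR first and bud n at low R:FR last. The lowest bud n-2 array, replicate 2 at high R:FR, was still above the highest array of bud n.

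**Figure D1:**
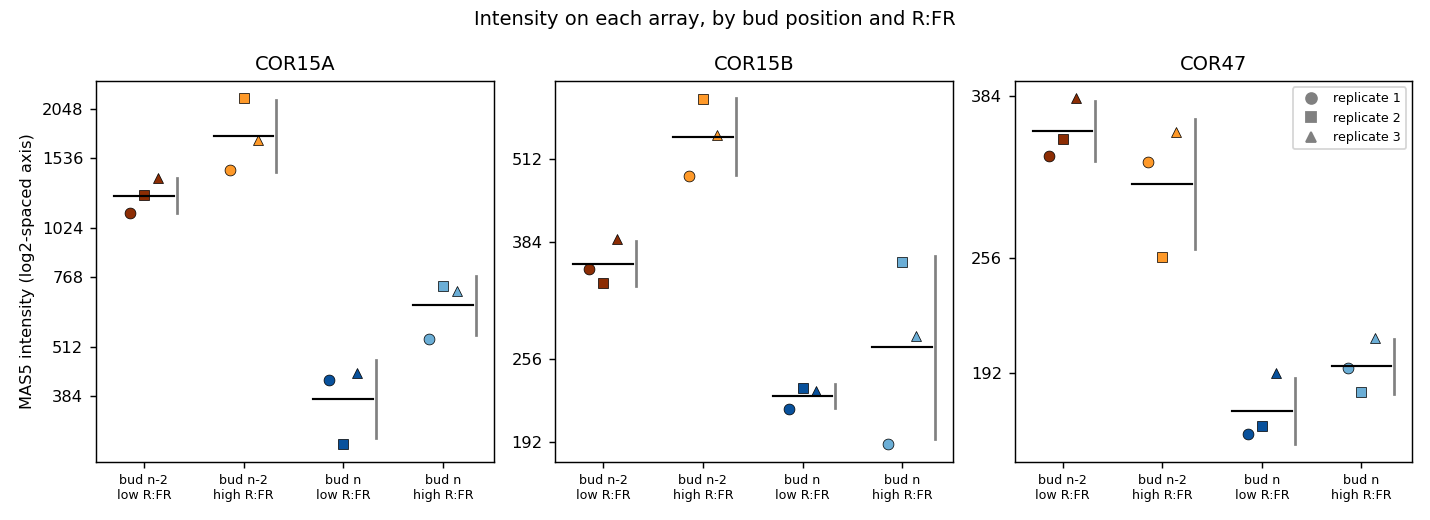
MAS5 intensity of COR15A, COR15B and COR47 on each of the 12 arrays (log2-spaced vertical axis, a different range in each panel), by bud position and R:FR. Symbols give the replicate, black lines the mean of the log2 values and grey bars 1 SD of them to each side (n = 3); the 4 groups of COR15A do not overlap, while the light groups of COR47 overlap in both buds.

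The share of variation that each factor took differed between the genes. Bud position accounted for 79.7% of the sum of squares of log2 intensity of COR15A, 64.4% of that of COR15B and 88.4% of that of COR47. Light accounted for 13.5% and 16.8% of the sum of squares of COR15A and COR15B and for 0.0211% of that of COR47. Over all tested probe sets the median shares were 44.2% for position and 4.45% for light.

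The first comparison set the lower bud against the uppermost one. All 3 genes were higher in bud n-2 at high R:FR, where 20.2% of all tested probe sets were called higher (limma, adjusted p under 0.05). COR15A averaged 1774 ± 377 in bud n-2 and 657 ± 107 in bud n (SD, n = 3 each), a 2.68-fold difference (log2 1.42 ± 0.17 SE, limma adjusted p = 5.2e-06). COR15B averaged 556 ± 73.7 in bud n-2 and 275 ± 83.9 in bud n, a 2.07-fold difference (log2 1.05 ± 0.16 SE, limma adjusted p = 8.1e-05). COR47 averaged 311 ± 48.7 in bud n-2 and 196 ± 13.5 in bud n, a 1.58-fold difference (log2 0.66 ± 0.11 SE, limma adjusted p = 0.000226). Arrays of the positions did not overlap for any of the 3 genes, as for 26.1% of all tested probe sets in that direction. COR15A lay among the larger differences, since 2.08% of tested probe sets had a log2 difference at least as high. The corresponding shares were 3.90% for COR15B and 9.37% for COR47.

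All 3 genes were also higher in bud n-2 at low R:FR, where 28.4% of tested probe sets were called higher. COR15A averaged 1238.5 ± 126 in bud n-2 and 383 ± 81.5 in bud n, or 3.27-fold (log2 1.71 ± 0.17 SE, limma adjusted p = 2.7e-07). COR47 averaged 353 ± 26.5 in bud n-2 and 175 ± 14.8 in bud n, or 2.02-fold (log2 1.01 ± 0.11 SE, limma adjusted p = 1.3e-06). COR15B had the smallest difference here, with 357 ± 27.9 in bud n-2 and 225 ± 8.96 in bud n, or 1.58-fold (log2 0.66 ± 0.16 SE, limma adjusted p = 0.00237). After median centring of each array, 1744 tested probe sets were called higher in bud n-2 at high R:FR, not 2890, and 2599 at low R:FR, not 4058; all 3 genes were still called higher in both. The arrays did not overlap for any of the 3, as for 33.6% of tested probe sets in that direction. The actin control ratio (3-prime over 5-prime signal, log2), which rises as RNA is degraded, was 4.03 to 4.32 on arrays of bud n-2 and 4.27 to 4.79 on arrays of bud n, and its part in these differences was not tested. The same ratios of GAPDH and ubiquitin overlapped widely between the positions. Both bud markers that were tested had position differences of the opposite sign, and that of PHV at low R:FR did not pass. At high R:FR, where 14.3% of tested probe sets were called lower in bud n-2, the log2 difference was -0.45 for PHV and -0.55 for YAB3 (limma adjusted p = 0.0193 and 0.00213). At low R:FR, where 23.3% were called lower, it was -0.45 for YAB3 (limma adjusted p = 0.00541) and -0.12 for PHV (limma adjusted p = 0.482). The part of tissue make-up in the position differences was not tested.

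The next comparison asked how each gene responded to low R:FR in bud n, where 0.0839% of all tested probe sets were called in either direction. None of the 3 genes passed. COR15A had a log2 change of -0.79 ± 0.17 SE, with a 95% interval of -1.14 to -0.44 (limma adjusted p = 0.107; unadjusted p = 0.000171). All 3 arrays at low R:FR lay below all 3 at high R:FR, as for 5.74% of tested probe sets in that direction, and 0.371% of tested probe sets had a change as low or lower. COR15A passed with limma array weights, which are estimated from the spread of the expression values and not from RNA quality (limma adjusted p = 0.0114). Its log2 change was then -0.81. Of the RNA quality ratios, that of actin was 4.50 to 4.79 at low R:FR and 4.27 to 4.35 at high R:FR in bud n, without overlap, and its part in the COR15A value was not tested. The ratios of the other controls overlapped between these light groups. That of GAPDH was 0.88 to 1.05 at low R:FR and 0.76 to 1.05 at high R:FR. That of ubiquitin was 1.44 to 1.81 at low R:FR and 1.23 to 1.58 at high R:FR.

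COR15B had a log2 change of -0.24 ± 0.16 SE in bud n (interval -0.58 to 0.10, limma adjusted p = 0.937), and its groups overlapped. That value was governed by replicates 1 and 2 of bud n at high R:FR: it was -0.48 without replicate 1 and -0.03 without replicate 2. COR47 had a log2 change of -0.16 ± 0.11 SE (interval -0.40 to 0.07, limma adjusted p = 0.949). The intervals of COR15B and COR47 include falls of a size that these arrays could not call.

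In the lower bud, COR15B fell at low R:FR and the other 2 genes did not pass. COR15B had a log2 change of -0.63 ± 0.16 SE, or 1.55-fold lower (limma adjusted p = 0.0197), in a comparison where 5.49% of tested probe sets fell. Its groups did not overlap, as for 13.9% of tested probe sets in that direction. The call was lost without replicate 2 of bud n-2 at high R:FR (adjusted p = 0.0803), without replicate 1 or replicate 2 of bud n-2 at low R:FR (adjusted p = 0.0611 and 0.0633), and without a trend in the prior variance (adjusted p = 0.0599). COR15A had a log2 change of -0.50 ± 0.17 SE (interval -0.85 to -0.15, limma adjusted p = 0.0636) without overlap of its groups. COR15A passed without replicate 1 of bud n-2 at high R:FR (log2 -0.65, adjusted p = 0.0293), and also without replicate 1 of bud n at high R:FR or replicate 2 of bud n at low R:FR (adjusted p = 0.0458 and 0.0367), which leave the change itself as it was. COR47 had a log2 change of 0.19 ± 0.11 SE (interval -0.05 to 0.43, limma adjusted p = 0.317), with the opposite sign. In bud n-2 the actin ratio overlapped between the light groups, at 4.03 to 4.32 at low R:FR and 4.03 to 4.27 at high R:FR.

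**Figure D2:**
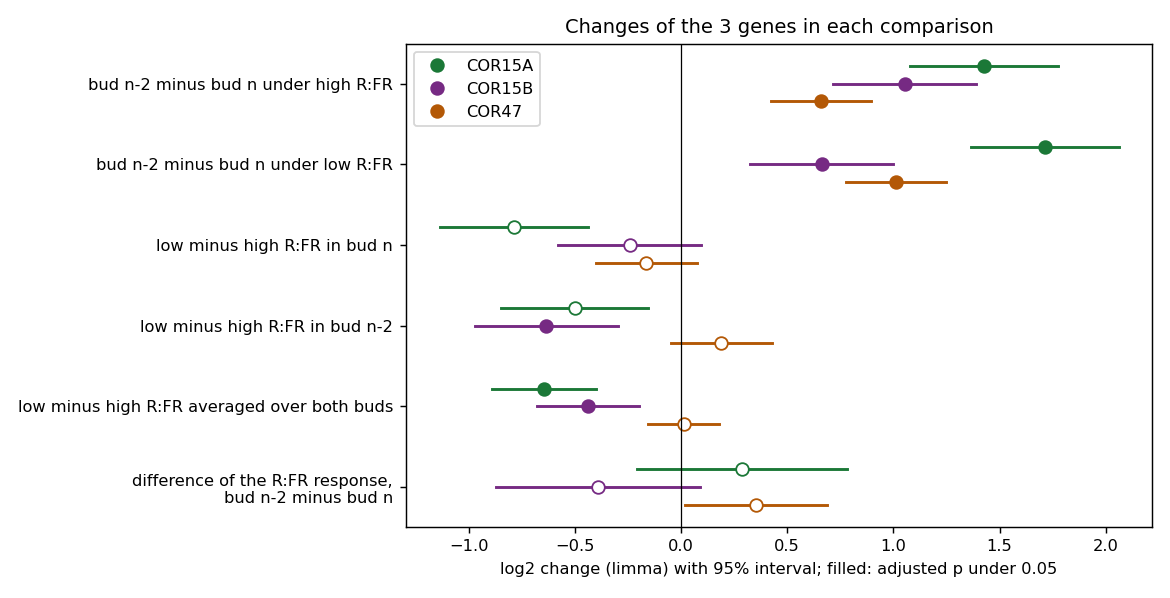
Log2 changes of COR15A, COR15B and COR47 in each comparison, from limma on all 12 arrays, with 95% intervals; filled circles passed at an adjusted p under 0.05. All 3 genes are to the right of 0 in both position comparisons, and COR47 is near 0 in the light response averaged over both buds (log2 0.01) while COR15A (-0.64) and COR15B (-0.44) are below it.

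Averaged over both buds, a comparison added after the values were seen, COR15A and COR15B fell at low R:FR and COR47 did not pass, in a fit where 1.94% of tested probe sets fell. COR15A fell by 0.64 on the log2 scale, or 1.56-fold (SE 0.12, limma adjusted p = 0.0045), and this call held with every array left out in turn and under each other setting tried (adjusted p = 0.000879 to 0.032). COR15B fell by 0.44, or 1.35-fold (SE 0.11, limma adjusted p = 0.038). The COR15B call was fragile: it was lost when any 1 array was left out other than replicate 1 of bud n-2 at high R:FR or replicate 1 of bud n at high R:FR, with adjusted p of 0.0586 to 0.0984. COR47 had a log2 change of 0.01 ± 0.08 SE (interval -0.15 to 0.18, limma adjusted p = 0.954).

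**Figure D3:**
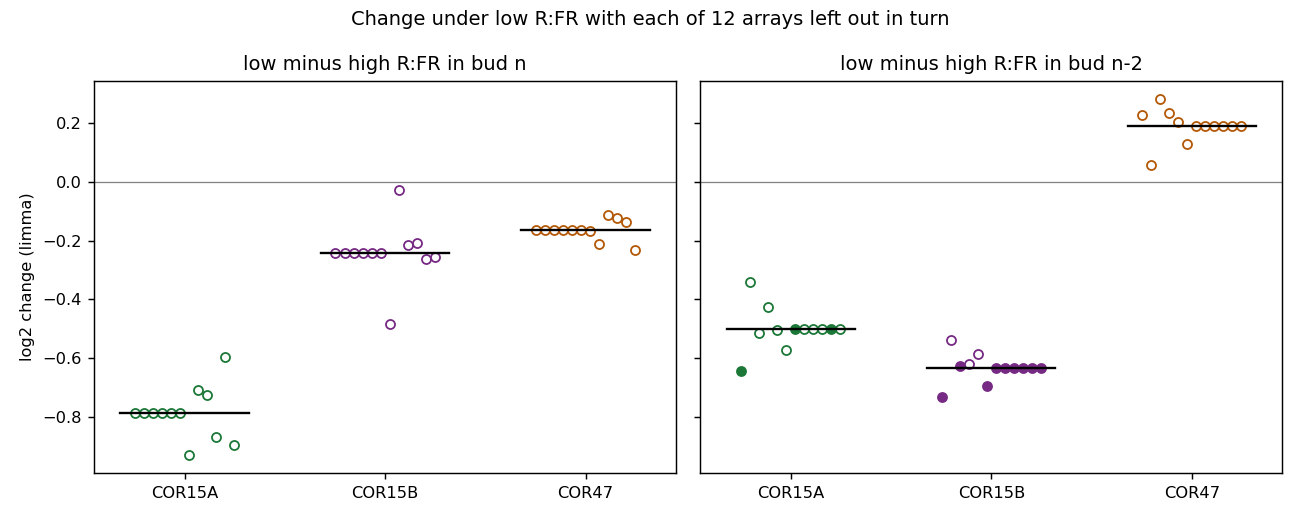
Log2 change at low R:FR in bud n (left) and in bud n-2 (right) with each of the 12 arrays left out in turn; black lines give the value on all arrays and filled circles passed at an adjusted p under 0.05. In bud n-2 the values of COR15B run from -0.73 to -0.54 and those of COR47 from 0.06 to 0.28; in bud n COR15B runs from -0.48 to -0.03.

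The responses to low R:FR were then compared between the buds. None of the 3 genes passed by the interaction term, where 1.03% of tested probe sets were called. The response of COR47 was more positive in bud n-2 than in bud n by 0.35 ± 0.16 SE on the log2 scale (interval 0.02 to 0.69, unadjusted p = 0.04, limma adjusted p = 0.308). The difference of responses was 0.29 ± 0.23 SE for COR15A (limma adjusted p = 0.607) and -0.39 ± 0.23 SE for COR15B (limma adjusted p = 0.44). The intervals ran from -0.21 to 0.78 for COR15A and from -0.87 to 0.09 for COR15B, so these arrays do not fix whether either gene responds alike in the buds. Single arrays moved these values by over 1.5 times, though none passed with any 1 array left out. That of COR15A was 0.14 without replicate 1 of bud n-2 at high R:FR, 0.45 without replicate 2 of bud n-2 at high R:FR and 0.10 without replicate 2 of bud n at low R:FR. For COR15B, leaving out bud n arrays at high R:FR gave -0.15 (replicate 1) and -0.60 (replicate 2), and for COR47 the value was 0.22 without replicate 2 of bud n-2 at high R:FR.

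Whether the genes changed unequally was tested on the log2 difference between their signals on each array, by exact permutation of the position or light labels within the other factor (two-sided, 400 arrangements, smallest possible p = 0.005). These 6 tests, each on a value averaged over the other factor, were chosen after the values were seen. The position difference of COR15A exceeded that of COR15B by 0.71 on the log2 scale (exact permutation p = 0.005, adjusted p = 0.01) and that of COR47 by 0.73 (exact permutation p = 0.005, adjusted p = 0.01). Averaged over light, the position differences of COR15B and COR47 differed by 0.02 (exact permutation p = 0.935), but this average joins gaps of opposite sign. At high R:FR the position difference of COR15B was the larger (log2 1.05 against 0.66). At low R:FR that of COR47 was (1.01 against 0.66). The light response of COR15A was more negative than that of COR47 (log2 difference -0.66, exact permutation p = 0.005, adjusted p = 0.01). The light responses of COR15B and COR47 had a log2 difference of -0.45 (exact permutation p = 0.045, adjusted p = 0.0675), and those of COR15A and COR15B of -0.21 (exact permutation p = 0.28), which was -0.10 without replicate 2 of bud n at low R:FR. In bud n the response of COR15A was the more negative of these 2 genes (log2 -0.79 against -0.24). In bud n-2 that of COR15B was (-0.63 against -0.50). How steeply each probe set responds to transcript amount was not tested, so these values compare changes of probe signals.

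The gap between COR15A and COR15B shows where these neighbouring genes parted. The log2 signal of COR15A minus that of COR15B was 1.79 ± 0.11 in bud n-2 at low R:FR and 1.66 ± 0.12 in bud n-2 at high R:FR (SD, n = 3 each). It was 0.74 ± 0.36 in bud n at low R:FR and 1.29 ± 0.24 in bud n at high R:FR. Every bud n-2 array, at 1.57 or above, therefore had a wider gap than every bud n array, at 1.49 or below.

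Correlation over all 12 arrays was not tested, because the positions form separate clusters; the genes were compared within each bud, over 6 arrays. In bud n-2, COR15A and COR15B varied together, with Pearson r = 0.943 (exact permutation test, two-sided, n = 6, p = 0.00278; 0.0167 after adjustment over 6 relations). Spearman's rho was 0.943 (exact permutation p = 0.0167; 0.1 after adjustment). Without the 2 arrays farthest from the median of COR15A, r was 0.952 over 4 arrays. With any 1 of the 6 arrays left out, r was 0.921 to 0.964 over 5 arrays. With 5 arrays the smallest exact permutation p is 0.00833, or 0.05 after adjustment for a single relation of the 6, so this relation could not pass alone and no p is given for it. The light groups lie apart for both genes, so this r includes their shared change with light. Deviations from the group means, which leave that out, had r = 0.914 over the same 6 arrays.

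In bud n the same pair had r = 0.592 (exact permutation test, n = 6, p = 0.224; 0.268 after adjustment) and rho = 0.486 (exact permutation p = 0.356; 0.677 after adjustment). Without the 2 farthest arrays r was 0.597. It was 0.309 without replicate 2 of bud n at high R:FR and 0.787 without replicate 1 of that group. In bud n at low R:FR, COR15A varied from 289.5 to 438 while COR15B stayed between 215 and 232.

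COR47 passed no test of joint variation with the other genes within a bud, and 6 arrays could not settle whether it follows them. In bud n-2 its r was -0.664 with COR15A (exact permutation test, n = 6, p = 0.163; 0.268 after adjustment) and -0.615 with COR15B (exact permutation p = 0.179; 0.268 after adjustment). The Spearman values were -0.314 and -0.371 (exact permutation p = 0.564 and 0.497, both 0.677 after adjustment). The 2 arrays farthest from the median of the other gene of the pair were then left out, which are not the same 2 for both pairs. This gave r of -0.0513 with COR15A and -0.0876 with COR15B. Both negative values rest largely on replicate 2 of bud n-2 at high R:FR, where COR15A and COR15B were at their highest of all 12 arrays and COR47 at its lowest in bud n-2. Without that array r was 0.249 with COR15A and -0.0545 with COR15B.

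In bud n, COR47 had r = 0.687 with COR15A (exact permutation test, n = 6, p = 0.122; 0.268 after adjustment) and 0.168 with COR15B (exact permutation p = 0.778). The Spearman values were 0.6 (exact permutation p = 0.242; 0.677 after adjustment) and 0.0857 (exact permutation p = 0.919). Without the 2 arrays farthest from the median of the other gene, these r were 0.824 with COR15A and 0.858 with COR15B. Each is over 4 arrays, not the same 4 for both pairs. Every r within a bud includes any change with light, which deviations from group means leave out. Over the deviations of all 12 arrays from their group means, r was 0.604 for COR15A and COR15B, -0.136 for COR15A and COR47, and -0.216 for COR15B and COR47, as descriptions with 8 degrees of freedom. For the same pairs in that order, r of the deviations was 0.506, 0.290 and -0.165 in bud n. In bud n-2 it was 0.914, -0.464 and -0.374. Deviations of COR15A and COR15B had the same sign on 8 of 12 arrays, those of COR15B and COR47 also on 8, and those of COR15A and COR47 on 6. COR15B and COR47 were both above their group means on replicate 3 of every group, and the part of replicate number in these values was not tested. The 3 genes thus shared the difference between positions. Of the 6 Pearson tests of joint variation within a bud, 1 passed, that of COR15A and COR15B in bud n-2, and by Spearman's rho none passed.

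**Figure D4:**
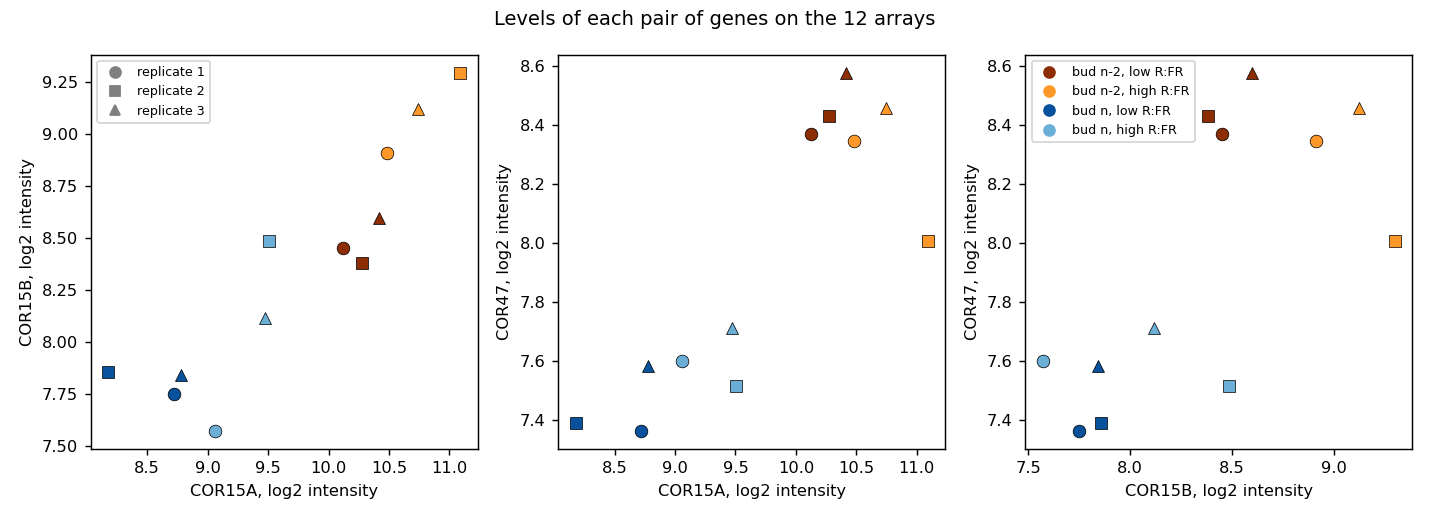
Log2 intensity of each pair of genes on the 12 arrays, with colours for the groups and symbols for the replicates. The positions form separate clusters in every panel; within bud n-2 the points of COR15A and COR15B lie near a line (r = 0.943), while replicate 2 of bud n-2 at high R:FR is far below the other bud n-2 arrays for COR47.

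The genes whose levels over the 12 arrays were most like the mean standardised profile of the 3 genes were found among 7791 other tested probe sets with a single locus, as a description that position dominates. The highest Pearson r were 0.993 for AT2G47890, 0.988 for TET3, a tetraspanin membrane protein gene, 0.981 for AT2G16365, 0.981 for LTI30 and 0.979 for AT4G32340, where the 99th percentile of all candidates was 0.924. AT2G47890 averaged an intensity of 81.9 in bud n-2 at low R:FR, 92.0 in bud n-2 at high R:FR, 41.8 in bud n at low R:FR and 50.6 in bud n at high R:FR. TET3 averaged 148, 155, 64.4 and 80.1 in the same groups. At low R:FR in bud n-2, AT4G32340 had a log2 change of -0.54, and the others of these 5 had -0.17 to -0.07. The 5 were picked for likeness to a profile that includes the light changes of the 3 genes, so no p is given for this. The r of these 5 with COR15A was 0.952 to 0.977, with COR15B 0.868 to 0.939 and with COR47 0.843 to 0.938.

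By deviations from group means, the most alike were AT1G58150 (r = 0.946), AT2G25870 (0.943), BPC1, a BASIC PENTACYSTEINE transcription factor gene (0.933), AT2G01710 (0.926) and AT5G40910 (0.925). The 99th percentile of the 7791 candidates was 0.786, and these r are a description, as the 5 were picked as the highest. Their r with the deviations of COR47 alone was 0.0799 to 0.51, lower than with those of COR15A (0.606 to 0.922) or COR15B (0.647 to 0.871). No gene was named by both measures. Of these 5, BPC1 and AT5G40910 were higher in bud n-2 under both light conditions, with log2 differences of 1.11 and 0.80 at high R:FR and 0.94 and 0.91 at low R:FR (limma adjusted p from 5.4e-07 to 0.00103). Of all tested probe sets, 20.2% were called higher at high R:FR and 28.4% at low R:FR. AT2G25870 went the other way at low R:FR, with a log2 difference of -0.45 (limma adjusted p = 0.00071), where 23.3% were called lower. AT1G58150 and AT2G01710 were not called at either light condition.

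Other genes of the cold and ABA pathways could be followed only in part. The platform annotation used here lists no gene for 8794 of 22810 probe sets. A gene counted below as having no probe set of its own may therefore still be on the array. Of 32 further cold-regulated and LEA genes, 3 had a probe set of their own and all 3 were tested. Of 34 cold-signalling and light factors, among them the CBF genes, and of 36 ABA signalling genes, 0 had one by that annotation and none was analysed here. Of 17 genes of ABA synthesis, breakdown and transport, only UGT71B6 had one, and it was too dim to be tested. The 3 cold-regulated and LEA genes that were tested are LTI30, LEA4-5 and HIS1-3. LTI30 and LEA4-5 were called higher in bud n-2 at both light conditions, where 20.2% of all tested probe sets were at high R:FR and 28.4% at low R:FR. HIS1-3 passed the filter only through bud n-2, where it is high, so it is left out of that count and given as a bound. Neither LTI30 nor LEA4-5 passed for low R:FR, where 0.0839% of tested probe sets were called in bud n and 9.83% in bud n-2. HIS1-3 was too dim in bud n for a light change to be read there. In bud n-2 it did not pass, in a fit that also takes in the spread of its dim bud n arrays.

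LTI30, a cold-induced dehydrin gene of the same family as COR47, had intensities of 241, 272 and 276 in bud n-2 at low R:FR, against 284, 247 and 326 in bud n-2 at high R:FR. In bud n it had 21.1, 13.8 and 30.1 at low R:FR, against 19.3, 60.6 and 50.3 at high R:FR. Its position difference was log2 2.87 ± 0.31 SE at high R:FR (limma adjusted p = 2.7e-06) and 3.67 ± 0.31 SE at low R:FR (limma adjusted p = 6.6e-08). Replicate 2 of bud n at low R:FR was below the 40th percentile of its array, and with it set to that percentile the difference there was at least 11.6-fold. Under low R:FR its log2 change was -0.92 ± 0.31 SE in bud n (limma adjusted p = 0.608) and -0.11 ± 0.31 SE in bud n-2 (limma adjusted p = 0.866).

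LEA4-5, a late embryogenesis abundant protein gene, averaged 141 in bud n-2 at low R:FR, 103 in bud n-2 at high R:FR, 15.8 in bud n at low R:FR and 23.9 in bud n at high R:FR. It was below the 40th percentile on 2 of 3 bud n arrays at low R:FR and 1 of 3 at high R:FR. With those arrays set to their percentile, it was at least 3.87-fold higher in bud n-2 at high R:FR and at least 6.84-fold higher at low R:FR (limma adjusted p = 9.9e-05 and 7.1e-07 on the deposited values). HIS1-3, a drought- and ABA-inducible linker histone gene, was below that percentile on all 6 arrays of bud n, and was at least 14.4-fold higher in bud n-2 at high R:FR and at least 22.3-fold higher at low R:FR, with no test. The bound sets the mean log2 value of bud n-2 against the 40th percentile of the bud n arrays. STZ, a zinc-finger repressor gene taken as a marker of handling, was below the percentile on all 6 arrays of bud n and on 3 of 6 of bud n-2, with bounds of 1.21-fold at high R:FR and 1.11-fold at low R:FR. The part of handling in the position differences was not tested.

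**Figure D5:**
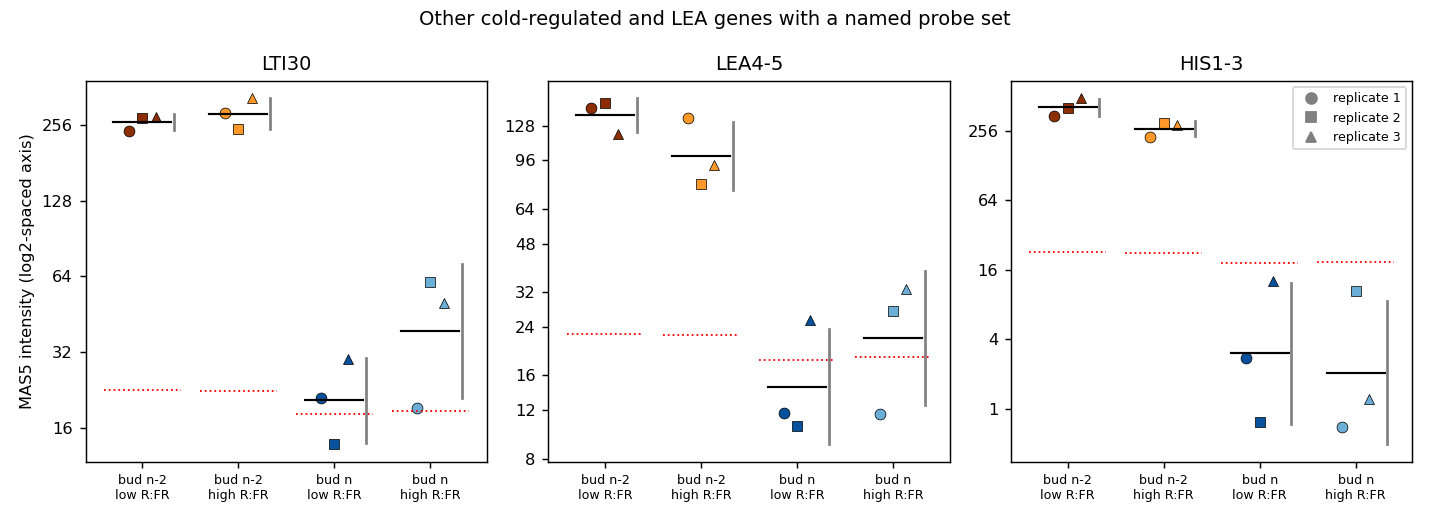
MAS5 intensity of LTI30, LEA4-5 and HIS1-3 on each array (log2-spaced vertical axis, a different range in each panel), drawn as for the 3 cold-regulated genes, with the mean 40th percentile of each group's arrays as a dotted red line. HIS1-3 lies below that line on all 6 bud n arrays and at 225 or above on all 6 bud n-2 arrays.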

How the data were processed

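The authors deposited 1 linear intensity per probe set and array; per the submitters' processing notes it came from MAS5 and GCOS, with no version named. The trimmed mean, leaving out 2% at each end, is the same on every deposited array, as scaling by a single factor gives. The log2 of the deposited intensity was taken with no offset. Of 22810 probe sets, 64 controls were left out, and those above the 40th percentile of their own array on at least 3 of 12 arrays were tested. Group means of all 12 arrays were estimated in limma 3.58.1 (R 4.3.3; trended eBayes). Adjustment was by Benjamini-Hochberg over the 14295 probe sets tested, at a threshold of 0.05, and intervals are 95%. Correlations and differences between genes were tested by exact permutation over arrays. The average over both buds and the differences between genes were added after the values were seen. The code was tested on simulated data. Gene names came from the platform annotation, updated through RefSeq: 13513 probe sets carry 1 gene, 503 carry several, and 8794 have no listed gene and were given no name. Named genes are the 3 members, the 5 most alike by each of 2 measures, and up to 5 members of each gene list that passed. The members and lists were chosen with earlier results of these data known.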

Additional observations from a re-analysis of the deposited data

How the results depend on the processing

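Alternatives changed the scaling (quantile or median), the offset (32 before log2), the filter (none, or the 60th percentile), the variance model (no trend, array weights, a replicate block) and the arrays (those compared, or all but 1). All position differences of the 3 genes kept their direction and call under each of them, with log2 values of 1.23 to 1.84 for COR15A, 0.47 to 1.27 for COR15B and 0.49 to 1.08 for COR47. Of 372 recomputed log2 changes, 346 kept direction and side of the threshold, 5 came past it, 16 fell short of it and 5 changed sign; the causes were not tested. Replicate numbers did not pair the arrays as a whole, since deviations of same-numbered arrays correlated at -0.124 to 0.0755. For COR47 and COR15B, though, signs followed replicate numbers in all 4 groups. COR47 was above its group mean on replicate 3 (log2 0.103 to 0.187) and below it on replicate 2. COR15B was above its group mean on replicate 3 and below it on replicate 1. A shared source of same-numbered replicates was not tested. With the replicate block no call of the 3 genes changed. COR15B at low R:FR in bud n-2 kept its log2 change of -0.63 (limma adjusted p = 0.00881, against 0.0197 without the block). Median centring moved the median of all tested probe sets to -0.13 between positions at high R:FR and -0.15 at low R:FR, against 0.04 and 0.05 as deposited. The probe sets called numbered 12 for low R:FR in bud n (8 to 24 over the alternatives), 1405 in bud n-2 (646 to 1664), 561 averaged over both buds (269 to 792) and 147 for the difference of responses (444 with array weights, and 0 in limma without the trend, where 2038 had an unadjusted p under 0.05).

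The low R:FR value of COR15A in bud n-2 passed with 32 added (-0.49) and ran from -0.65 to -0.34 over arrays left out; in bud n it passed with array weights (-0.81). COR15B in bud n-2 did not pass without the trend (-0.63) and ran from -0.73 to -0.54 over arrays left out. Averaged over both buds, COR15B did not pass without the filter or without the trend (-0.44 in both) and ran from -0.56 to -0.33; COR47 changed sign with array weights (-0.029) and ran from -0.053 to 0.060. Over arrays left out, the light response of COR15B minus that of COR47 ran from -0.57 to -0.32 and passed without replicate 1 of bud n at high R:FR. Their position differences, averaged over light, differed by -0.10 to 0.15 over arrays left out.

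Over arrays left out, r of COR15A and COR15B in bud n-2 was 0.921 to 0.964; 5 arrays could not carry a single relation past the threshold. For COR15A and COR47 in bud n-2, r ran from -0.797 to 0.249, and for COR15B and COR47 in bud n from -0.0267 to 0.397. Over deviations, r of COR47 ran from -0.32 to 0.456 with COR15A (0.0212 with quantile normalization) and from -0.409 to 0.0384 with COR15B. How far array signal stands above background limits LTI30, LEA4-5, HIS1-3 and STZ in bud n, but none of the 3 genes.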
